A study of Homo sapiens with 10 samples.

Results

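The proteasome subunit genes were the protein-coding genes of the hg19 annotation (GENCODE release 44 on GRCh37) named PSMA, PSMB, PSMC, PSMD, PSME, PSMF or PSMG followed by a number. There were 48 of them among 20098 protein-coding genes (autosomes and chromosome X). They were taken by name and not by a measured value, though earlier results of these data were known when the set was chosen. Of the 48, 19 were core genes (PSMA and PSMB) and 29 were regulatory genes (PSMC to PSMG). The series mapped the chromatin protein ZMYND8 by ChIP-seq in HEK293, an established human embryonic kidney cell line, and comprised 2 ChIP samples for ZMYND8, 2 for FLAG-ZMYND8, 2 for H3K14ac and 2 for H3K27ac, with 1 input and 1 FLAG input. ZMYND8 was precipitated with an antibody to the protein itself. According to the labels, these were Flp-In T-REx HEK293 cells expressing either full-length 3xFLAG-ZMYND8 or its bromodomain mutant N228F, and which of the 2 was used was not given. For FLAG-ZMYND8, inducible 3xFLAG-ZMYND8 was overexpressed with 10 nM doxycycline and precipitated through the tag, so that list reports a tagged protein above its natural level. Cells of both groups carried the tagged construct, and chromatin was digested with micrococcal nuclease.

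The proteasome degrades proteins marked with ubiquitin. Its core particle is a barrel of stacked rings, in which PSMA genes encode the outer alpha rings that gate the entrance and PSMB genes encode the inner beta rings that hold the peptidase sites. The regulatory particle recognizes, unfolds and feeds in the substrate through an ATPase ring encoded by PSMC genes and a set of mostly PSMD subunits, while PSME genes encode alternative activators, PSMF1 an inhibitor and PSMG genes chaperones that assemble the core. ZMYND8 reads acetylated and methylated histones through joined PHD, bromodomain and PWWP modules.

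The sequences below are the hg19 reference under peaks at 6 of these genes, chosen because they carry the patterns described later, and are read 5′ to 3′ along the gene with CpG dinucleotides in capitals. PSMC1 and PSMC4 (chr14:90723250-90723330 and chr19:40476532-40476831, both on the plus strand) are shown as stretches under peaks of both lists. PSMD14 (chr2:162164636-162164935, plus strand) is the stretch just before the start under the widest ZMYND8 peak whose gene start was not in doubt. PSMD11 and PSME1 (chr17:30770925-30771075 and chr14:24604742-24604968, plus strand) are whole ZMYND8 peaks at genes without a FLAG-ZMYND8 peak. PSMB10 (chr16:67970353-67970652, minus strand) lies under a wide FLAG-ZMYND8 peak inside the gene. They held 7 CpG in 81 bp at PSMC1, 22 in 300 bp at PSMC4, 30 in 300 bp at PSMD14, 12 in 151 bp at PSMD11, 8 in 227 bp at PSME1 and 17 in 300 bp at PSMB10.
PSMC1: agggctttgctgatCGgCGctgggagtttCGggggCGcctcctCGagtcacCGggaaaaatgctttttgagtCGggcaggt
PSMC4: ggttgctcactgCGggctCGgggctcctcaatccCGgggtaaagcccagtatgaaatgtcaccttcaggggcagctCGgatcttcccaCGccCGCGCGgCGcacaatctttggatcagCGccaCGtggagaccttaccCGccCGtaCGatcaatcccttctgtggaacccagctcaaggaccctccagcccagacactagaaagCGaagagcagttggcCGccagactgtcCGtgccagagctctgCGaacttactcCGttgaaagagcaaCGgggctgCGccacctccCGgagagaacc
PSMD14: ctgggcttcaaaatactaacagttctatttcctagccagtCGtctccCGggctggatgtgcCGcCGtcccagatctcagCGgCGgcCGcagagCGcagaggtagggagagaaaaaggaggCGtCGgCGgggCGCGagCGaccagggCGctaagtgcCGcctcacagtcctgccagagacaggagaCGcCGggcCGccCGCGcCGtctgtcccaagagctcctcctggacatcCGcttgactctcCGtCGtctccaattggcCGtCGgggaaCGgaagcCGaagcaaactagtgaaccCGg
PSMD11: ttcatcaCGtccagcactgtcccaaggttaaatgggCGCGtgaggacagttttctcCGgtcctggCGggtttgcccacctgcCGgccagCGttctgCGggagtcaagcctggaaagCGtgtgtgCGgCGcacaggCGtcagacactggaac
PSME1: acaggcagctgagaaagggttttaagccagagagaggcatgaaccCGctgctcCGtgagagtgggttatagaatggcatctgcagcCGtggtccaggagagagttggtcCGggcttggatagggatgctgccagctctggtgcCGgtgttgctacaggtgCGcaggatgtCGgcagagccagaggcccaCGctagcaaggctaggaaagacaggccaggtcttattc
PSMB10: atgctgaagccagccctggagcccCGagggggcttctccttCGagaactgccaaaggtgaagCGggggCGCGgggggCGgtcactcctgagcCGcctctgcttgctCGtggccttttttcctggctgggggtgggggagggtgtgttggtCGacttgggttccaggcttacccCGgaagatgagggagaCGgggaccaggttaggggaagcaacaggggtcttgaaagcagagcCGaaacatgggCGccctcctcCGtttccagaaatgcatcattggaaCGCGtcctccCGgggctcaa

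The authors deposited 1 peak list for ZMYND8 with 15086 peaks and 1 for FLAG-ZMYND8 with 63690 peaks. The acetylation and input samples were not analysed here. Neither list names replicates or gives read counts, so the depth is unknown, no spread between replicates can be stated, and no difference was tested. The deposited score was 1 for every peak, and 53.0% of the ZMYND8 list had its minimum width of 151 bp, as did 54.7% of the FLAG-ZMYND8 list with its minimum of 167 bp. A peak was placed at a gene when its midpoint lay within 3 kb of the annotated 5′ end of the gene, and distances are from that end to the midpoint. Shares carry exact (Clopper-Pearson) 95% intervals, which cover counting error only and treat genes as independent.

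ZMYND8 peaks lay at 22 of the 48 proteasome genes, a share of 45.8% (interval 31.4 to 60.8%), against 34.1% of all protein-coding genes. FLAG-ZMYND8 peaks lay at 33, a share of 68.8% (53.7 to 81.3%), against 58.1%. Both intervals contained the share of all genes, so neither excess was beyond counting error. Peaks of both lists were at 16 genes (33.3%, 20.4 to 48.4%, against 29.4%), ZMYND8 alone at 6 (12.5%, 4.73 to 25.2%, against 4.73%) and FLAG-ZMYND8 alone at 17 (35.4%, 22.2 to 50.5%, against 28.7%). The remaining 9 genes had a peak of neither list, a share of 18.8% (8.95 to 32.6%) against 37.2%, and this interval lay below the share of all genes. It did not when the FLAG-ZMYND8 list was trimmed to its widest peaks, as many in number as the ZMYND8 list, where 19 genes had neither (39.6%, 25.8 to 54.7%, against 50.5%). Housekeeping sets of another kind had low shares without a peak too, 7.79% of 77 cytosolic ribosomal protein genes and 16.7% of 78 mitochondrial ribosomal protein genes. All protein-coding genes include those silent in HEK293, and expression was not measured in these data.

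**Figure D1:**
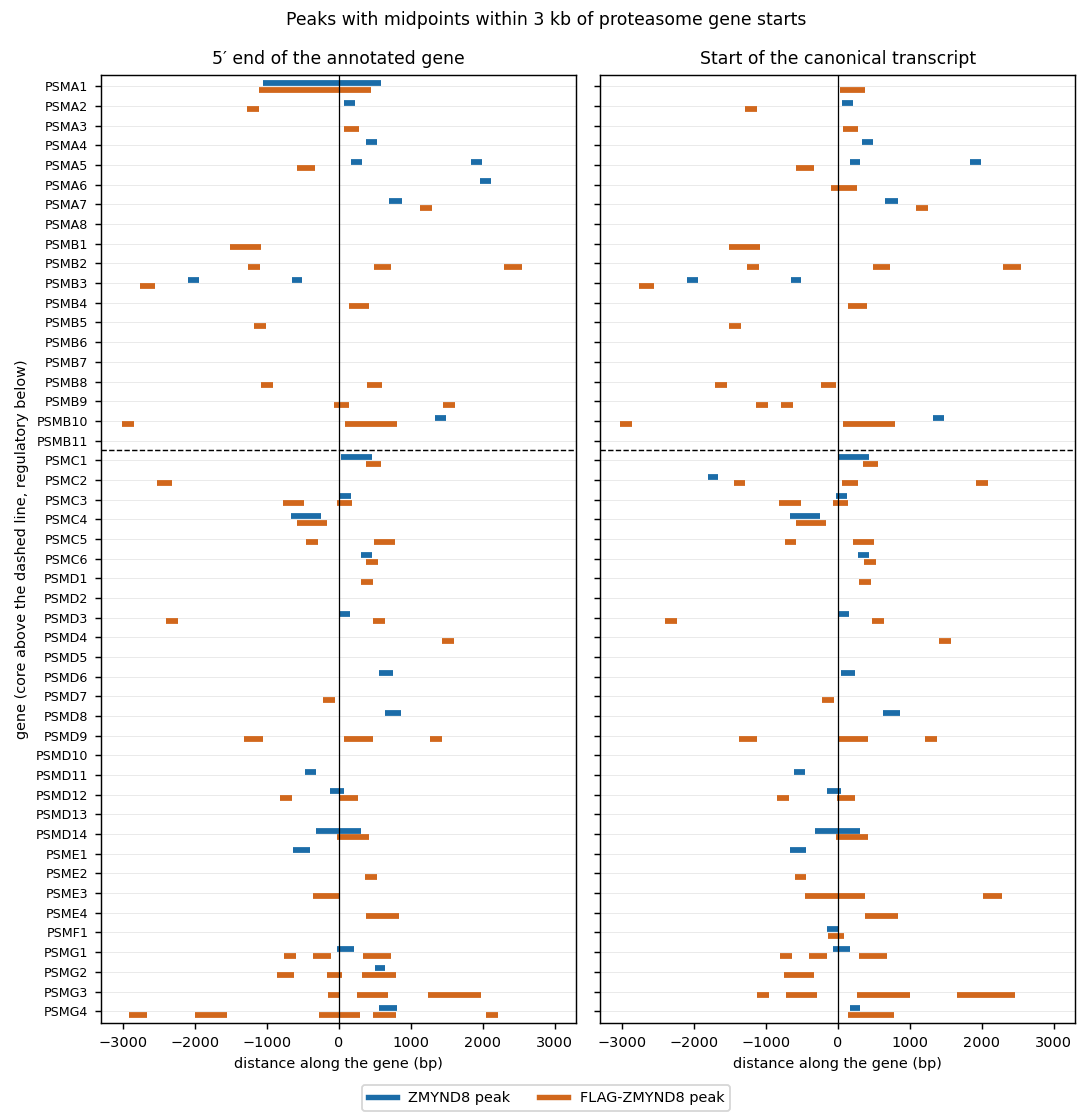
Peaks at each of the 48 genes, drawn to scale as bars from their first to last base against the distance along the gene in bp (negative upstream), from the annotated 5′ end on the left and from the start of the canonical transcript on the right. ZMYND8 peaks (blue) and FLAG-ZMYND8 peaks (orange) lay on top of each other mostly at regulatory genes, and the rows of 9 genes on the left and 8 on the right are empty.

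For 8 of the 48 genes the canonical (MANE Select) transcript starts over 1 kb downstream of the annotated 5′ end, by 5362 bp at PSMF1 and 123249 bp at PSMA1. The others are PSMA6, PSMB9, PSMC2, PSME3, PSMG2 and PSMG4. Over all protein-coding genes the share was 16.4%, close to the 16.7% here. From canonical starts, ZMYND8 peaks lay at 21 genes (43.8%, against 35.2% of all genes), FLAG-ZMYND8 peaks at 35 (72.9%, against 59.6%), both at 16 (33.3%, against 30.4%) and neither at 8 (16.7%, against 35.6%). Calls changed at 5 genes, which are named with their groups below.

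Among the core genes, 8 of 19 had a ZMYND8 peak (42.1%, 20.3 to 66.5%, against 34.1% of all genes) and 13 a FLAG-ZMYND8 peak (68.4%, 43.4 to 87.4%, against 58.1%). The alpha and beta rings differed: 6 of the 7 alpha ring genes PSMA1 to PSMA7 had a ZMYND8 peak and PSMA3 did not, whereas PSMB3 was the only gene with a ZMYND8 peak among the 7 beta ring genes PSMB1 to PSMB7. Their intervals were 42.1 to 99.6% and 0.361 to 57.9% and overlapped, against 34.1% of all genes. FLAG-ZMYND8 peaks were at 5 of 7 genes in each ring, against 58.1% of all genes. From canonical starts the ZMYND8 count of the alpha ring fell to 4 of 7 and that of the beta ring stayed at 1 of 7. Part of the gap therefore rested on which start was taken for PSMA1 and PSMA6.

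PSMA1 shows why the start mattered. Its annotated 5′ end is at the start of PDE3B, a phosphodiesterase gene, and both lists had their widest proteasome peak there. The ZMYND8 peak spanned 1637 bp (chr11:14664591-14666227) and the FLAG-ZMYND8 peak 1547 bp (chr11:14664736-14666282), with 1492 bp in common. To which gene these peaks belong cannot be told apart from the lists. At the canonical start of PSMA1 no ZMYND8 peak was found, and the nearest FLAG-ZMYND8 peak (chr11:14541555-14541902, 348 bp) was 204 bp downstream in the untranslated exon. PSMA6 likewise had a ZMYND8 peak of 151 bp (chr14:35749804-35749954) 2040 bp into the annotated gene and none at the canonical start, which a FLAG-ZMYND8 peak of 367 bp (chr14:35761494-35761860) covered.

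The other alpha ring genes had small peaks at separate positions. PSMA2 had a ZMYND8 peak of 151 bp at 145 bp downstream and a FLAG-ZMYND8 peak of 167 bp at 1195 bp upstream. PSMA5 had ZMYND8 peaks of 151 bp at 241 and 1910 bp downstream and a FLAG-ZMYND8 peak of 250 bp at 460 bp upstream. PSMA7 had a ZMYND8 peak of 189 bp at 790 bp and a FLAG-ZMYND8 peak of 167 bp at 1212 bp, both downstream. In none of these 3 genes did the peaks of the lists overlap. PSMA4 had only a ZMYND8 peak (chr15:78833122-78833272, 151 bp, at 450 bp in the untranslated exon), and PSMA3 only a FLAG-ZMYND8 peak of 208 bp at 178 bp. PSMA2 and PSMA7 start within 1 kb of MRPL32 and SS18L1, so their peaks could belong to either gene of the pair.

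In the beta ring, the peptidase sites are carried by PSMB5, PSMB6 and PSMB7. At its start PSMB5 had a FLAG-ZMYND8 peak of minimum width 1093 bp upstream, and PSMB6 and PSMB7 had no peak of either list within 3 kb, as did 37.2% of all genes. Further inside the genes, PSMB5 held 3 FLAG-ZMYND8 peaks and 1 ZMYND8 peak, PSMB7 held 3 FLAG-ZMYND8 peaks and PSMB6 held none. The nearest FLAG-ZMYND8 peaks were 5541 bp upstream of PSMB6 and 4436 bp upstream of PSMB7. Among the structural subunits, PSMB2 had 3 FLAG-ZMYND8 peaks of 167 to 255 bp, PSMB4 a peak of 268 bp at 282 bp downstream, and PSMB1 a peak of 423 bp at 1295 bp upstream, on the side of its neighbour TBP. PSMB3 had ZMYND8 peaks of 151 bp at 580 and 2018 bp upstream and a FLAG-ZMYND8 peak of 210 bp at 2653 bp upstream.

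The interferon-inducible genes, which encode the immunoproteasome peptidases PSMB8, PSMB9 and PSMB10 and the activator subunits PSME1 and PSME2, each had a peak of at least 1 list (5 of 5, interval 47.8 to 100.0%, against 62.8% of all genes). FLAG-ZMYND8 peaks were at 4 of the 5 (28.4 to 99.5%, against 58.1%) and ZMYND8 peaks at PSMB10 and PSME1, the same counts from either start. PSMB8 and PSMB9 overlap head to head in the annotation and shared 2 FLAG-ZMYND8 peaks, 1 of 209 bp (chr6:32811852-32812060) covering the annotated start of PSMB9 and 1 of 167 bp (chr6:32813363-32813529). At the canonical start of PSMB9, beside TAP1, the FLAG-ZMYND8 peaks were 2 others of 167 bp at 702 and 1058 bp upstream. PSMB10 had a FLAG-ZMYND8 peak of 719 bp (chr16:67969960-67970678) at 448 bp, the widest within 1 kb after that of PSMA1, and a minimum-width ZMYND8 peak (chr16:67969276-67969426) at 1416 bp, which did not overlap it. PSME1 had a ZMYND8 peak of 227 bp (chr14:24604742-24604968) at 517 bp upstream between genes, and PSME2 a FLAG-ZMYND8 peak of 167 bp (chr14:24616253-24616419) near the start it shares with RNF31.

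The testis alpha subunit PSMA8 and the thymus peptidase PSMB11 had no peak of either list. PSMA8 was far from both lists, with the nearest FLAG-ZMYND8 midpoint 70501 bp upstream and the nearest ZMYND8 midpoint 92953 bp downstream. At PSMB11 the nearest FLAG-ZMYND8 and ZMYND8 midpoints were 5889 and 16563 bp upstream.

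The regulatory genes had a ZMYND8 peak at 14 of 29 (48.3%, 29.4 to 67.5%, against 34.1% of all genes) and a FLAG-ZMYND8 peak at 20 of 29 (69.0%, 49.2 to 84.7%, against 58.1%). In the ATPase ring, all 6 genes PSMC1 to PSMC6 had a FLAG-ZMYND8 peak (against 58.1% of all genes) and 4 had a ZMYND8 peak (against 34.1%). At each of those 4 genes, PSMC1, PSMC3, PSMC4 and PSMC6, the peaks of the lists overlapped. At PSMC4 the ZMYND8 peak of 429 bp (chr19:40476403-40476831) and the FLAG-ZMYND8 peak of 413 bp (chr19:40476495-40476907) shared 337 bp upstream of the start, part of which is printed above. At PSMC1 the ZMYND8 peak, also of 429 bp (chr14:90722902-90723330), and the FLAG-ZMYND8 peak of 208 bp (chr14:90723250-90723457) shared the 81 bp printed above. The ZMYND8 peak of PSMC3 (chr11:47447857-47448007) lay wholly within a FLAG-ZMYND8 peak of 209 bp, and at PSMC6 2 minimum-width peaks (chr14:53174203-53174353 and chr14:53174281-53174447) shared 73 bp.

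PSMC5 had FLAG-ZMYND8 peaks of 167 and 284 bp on either side of its start and no ZMYND8 peak. Both of these peaks also lay inside FTSJ3, so they could belong to either gene. PSMC2 had a FLAG-ZMYND8 peak of 210 bp (chr7:102966497-102966706), in an intron of DNAJC2 and PMPCB, at 2416 bp upstream of the annotated end. From its canonical start, 19073 bp further on, it had 3 FLAG-ZMYND8 peaks, the nearest of 212 bp (chr7:102988155-102988366) at 170 bp downstream, and a minimum-width ZMYND8 peak (chr7:102986283-102986433) at 1732 bp upstream. The ATPase ring then counted 5 of 6 genes with ZMYND8 peaks (interval 35.9 to 99.6%, against 35.2% of all genes). FLAG-ZMYND8 peaks were at 6 of 6 (54.1 to 100.0%, against 59.6%), and that interval contained the share of all genes.

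**Figure D2:**
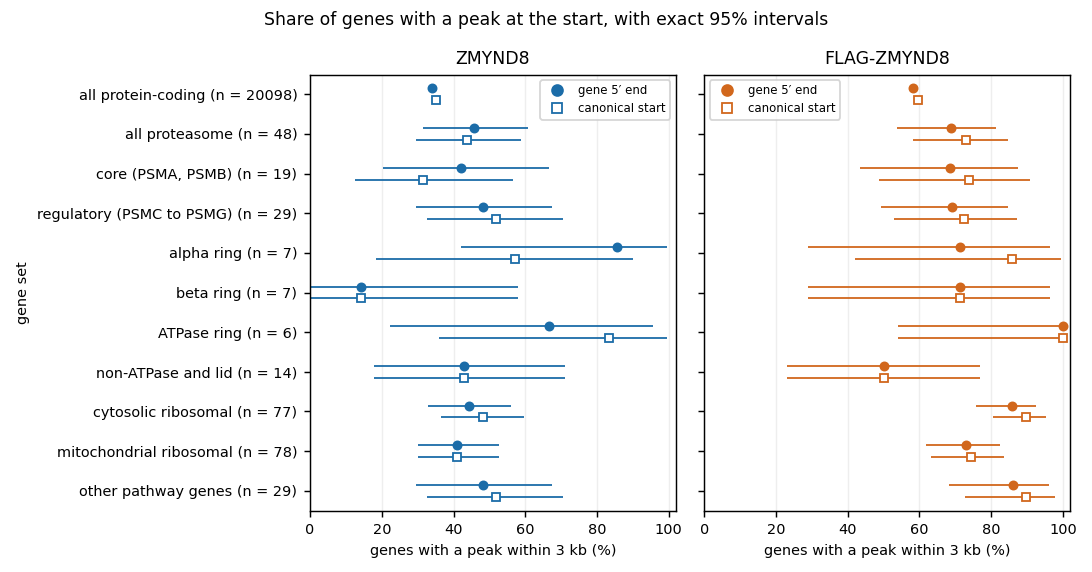
Share of genes with a peak within 3 kb, in percent, for all protein-coding genes, the proteasome genes and their groups, and 3 other gene sets. Points are shares from the annotated 5′ end (filled) or the canonical start (open) and bars are exact 95% intervals. The points of the 48 proteasome genes together lie to the right of all genes in both panels, with wide bars. Some of their groups lie to the left, such as the filled point of the non-ATPase and lid genes in the FLAG-ZMYND8 panel. In the ZMYND8 panel the filled points of the alpha and beta rings are the highest and the lowest drawn.

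The non-ATPase and lid genes PSMD1 to PSMD14 had FLAG-ZMYND8 peaks at 7 of 14 (50%, 23 to 77.0%, against 58.1% of all genes) and ZMYND8 peaks at 6 of 14 (against 34.1%). The FLAG-ZMYND8 interval overlapped those of the alpha, beta and ATPase rings. Both lists had peaks at PSMD14, PSMD12 and PSMD3. PSMD14 encodes the enzyme that removes ubiquitin chains from the substrate. Its ZMYND8 peak of 624 bp (chr2:162164625-162165248) was centred on the start and shared 334 bp with a FLAG-ZMYND8 peak of 440 bp (chr2:162164915-162165354). At the lid gene PSMD12 a ZMYND8 peak of 201 bp (chr17:65362648-65362848) and a FLAG-ZMYND8 peak of 251 bp (chr17:65362451-65362701) shared 54 bp, with midpoints on opposite sides of the start. At PSMD3, another lid gene, the peaks of 151 and 167 bp were 481 bp apart.

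The lid genes PSMD6, PSMD8 and PSMD11 had ZMYND8 peaks without FLAG-ZMYND8 peaks. These were 188 bp at 657 bp downstream in a coding exon of PSMD6 (chr3:64008936-64009123), 232 bp at 752 bp downstream in an untranslated exon of PSMD8 (chr19:38865840-38866071) and 151 bp at 397 bp upstream of PSMD11 (chr17:30770925-30771075). Together with PSMA4, PSMA6 and PSME1 they made up the 6 genes found in the shorter list alone, and the widest of the 6 peaks was the 232 bp peak of PSMD8. FLAG-ZMYND8 peaks alone were at PSMD1, PSMD4, which encodes a ubiquitin receptor, PSMD7 and PSMD9, which encodes an assembly factor. PSMD9 had 3 such peaks, the widest of 398 bp at 274 bp downstream.

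PSMD2, PSMD5, PSMD10 and PSMD13 had no peak of either list within 3 kb of either start. For PSMD2, a scaffold of the regulatory particle, the nearest FLAG-ZMYND8 midpoint was 7249 bp upstream and the nearest ZMYND8 midpoint 15832 bp downstream. For the assembly factors PSMD5 and PSMD10 the nearest FLAG-ZMYND8 midpoints were 26324 bp upstream and 8340 bp downstream, and for the lid gene PSMD13 14738 bp upstream. PSMD10 had its nearest ZMYND8 midpoint 348559 bp away. Both PSMD10 and PSMD13 have the start of another gene, ATG4A and SIRT3, within 1 kb, so a shared start did not always carry a peak.

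Of the activator genes, PSME1 had a ZMYND8 peak and PSME2, PSME3 and PSME4 had FLAG-ZMYND8 peaks, with no gene in both lists. PSME3 had a FLAG-ZMYND8 peak of 368 bp, in an untranslated exon of BECN1, at 181 bp upstream of its annotated end. Its canonical start, 9012 bp downstream, was covered by a FLAG-ZMYND8 peak of 838 bp (chr17:40984957-40985794), the widest of that list at any canonical proteasome start. PSME4, which starts within 1 kb of the start of ACYP2, had a peak of 458 bp at 607 bp downstream. The inhibitor PSMF1 had no peak at its annotated end but peaks of both lists over its canonical start, a ZMYND8 peak of 151 bp (chr20:1099101-1099251) and a FLAG-ZMYND8 peak of 224 bp (chr20:1099109-1099332) that shared 143 bp.

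Among the assembly chaperone genes, all 4 had at least 3 FLAG-ZMYND8 peaks from annotated 5′ ends and 3, PSMG1, PSMG2 and PSMG4, had ZMYND8 peaks. Of all genes, 58.1% had at least 1 FLAG-ZMYND8 peak and 34.1% a ZMYND8 peak. For at least 1 peak the intervals were 39.8 to 100.0% (4 of 4) and 19.4 to 99.4% (3 of 4). The share of all genes with at least 3 FLAG-ZMYND8 peaks was not counted, so that number cannot be called high. From canonical starts PSMG2 and PSMG4 had 1 FLAG-ZMYND8 peak each, and PSMG2 had no ZMYND8 peak. PSMG4 had 5 FLAG-ZMYND8 peaks around its annotated end, of which a peak of 575 bp (chr6:3231357-3231931) covered the start and a peak of 320 bp (chr6:3232117-3232436) shared 238 bp with the ZMYND8 peak of 242 bp (chr6:3232199-3232440). That end adjoins TUBB2B, a tubulin gene. At its canonical start, 27544 bp downstream, a ZMYND8 peak of 151 bp lay within a FLAG-ZMYND8 peak of 644 bp (chr6:3259325-3259968), so PSMG4 was called in both lists from either start.

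PSMG1 had a ZMYND8 peak of 238 bp (chr21:40555203-40555440) over its start, between FLAG-ZMYND8 peaks of 388 bp (chr21:40554691-40555078) and 255 bp (chr21:40555521-40555775) that did not touch it. PSMG2 had a ZMYND8 peak of 151 bp (chr18:12658541-12658691) inside a FLAG-ZMYND8 peak of 479 bp (chr18:12658360-12658838), near the start of SPIRE1. At its canonical start, 44999 bp downstream and beside CEP76, it had a FLAG-ZMYND8 peak of 423 bp (chr18:12702291-12702713) and no ZMYND8 peak. PSMG3 had 3 FLAG-ZMYND8 peaks of 167 to 745 bp and no ZMYND8 peak.

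At 3 kb from annotated 5′ ends, core and regulatory genes had like shares of called genes. From canonical starts ZMYND8 peaks lay at 6 of 19 core genes (31.6%) and 15 of 29 regulatory genes (51.7%), against 35.2% of all genes. FLAG-ZMYND8 peaks then lay at 14 core (73.7%) and 21 regulatory genes (72.4%), against 59.6%. The peaks of the 2 lists coincided at more of the regulatory genes. From annotated 5′ ends, 16 genes had peaks of both lists. Of these, 9 (56.2%, 29.9 to 80.2%) had a pair that overlapped by at least 1 bp, against 69.2% of the 5905 protein-coding genes with both. These were 8 of 10 regulatory genes (80.0%, 44.4 to 97.5%) and 1 of 6 core genes (16.7%, 0.421 to 64.1%), and the intervals overlapped. The core gene was PSMA1 at the PDE3B start, and from canonical starts the counts were 8 of 11 and 0 of 5 (interval 0 to 52.2%). The median of the smallest gap between midpoints was 129 bp at regulatory and 668 bp at core genes, against 205 bp over all genes with both.

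Counted by peak, 9 of the 24 ZMYND8 peaks at proteasome genes overlapped a FLAG-ZMYND8 peak (37.5%, 18.8 to 59.4%), against 56.4% of those at all protein-coding genes. Of the 52 FLAG-ZMYND8 peaks, 9 were shared in this way (17.3%, 8.23 to 30.3%), against 21.4%. The ZMYND8 share was 8 of 14 peaks at regulatory genes (57.1%, 28.9 to 82.3%) and 1 of 10 at core genes (10.0%, 0.253 to 44.5%). From canonical starts the counts were 8 of 15 and 0 of 8, and within 1 kb of annotated 5′ ends 8 of 14 and 1 of 6. The contrast was smaller when midpoints within 1 kb of each other counted as shared, at 10 of 14 and 5 of 10. Among peaks wider than the minimum the counts were 5 of 9 and 1 of 2, too few core peaks to compare. Peaks at the same gene are not independent. The difference between the groups was not tested.

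Narrowing the distance removed more core than regulatory genes from the FLAG-ZMYND8 counts. Within 1 kb, 8 of 19 core genes (42.1%, 20.3 to 66.5%) and 18 of 29 regulatory genes (62.1%, 42.3 to 79.3%) kept a FLAG-ZMYND8 peak, against 49.3% of all genes. These intervals overlapped, both contained the share of all genes, and the difference was not tested. For ZMYND8 the counts were 6 of 19 and 14 of 29, against 28.5%, and every regulatory gene called at 3 kb was still called. Peaks of both lists lay within 1 kb at 2 core genes (10.5%, 1.3 to 33.1%) and 10 regulatory genes (34.5%), against 22.7% of all genes. From canonical starts these were 1 core and 10 regulatory genes, against 24.7% of all genes. Within 500 bp, ZMYND8 peaks remained at 13 genes, 27.1% against 21.5%, and FLAG-ZMYND8 peaks at 23, 47.9% against 37.6%, and both at 9, 18.8% against 14.5%. In the trimmed FLAG-ZMYND8 list, peaks lay at 15 proteasome genes (31.2%, against 35.5%) and those of both lists at 8 (16.7%, against 20.1%).

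**Figure D3:**
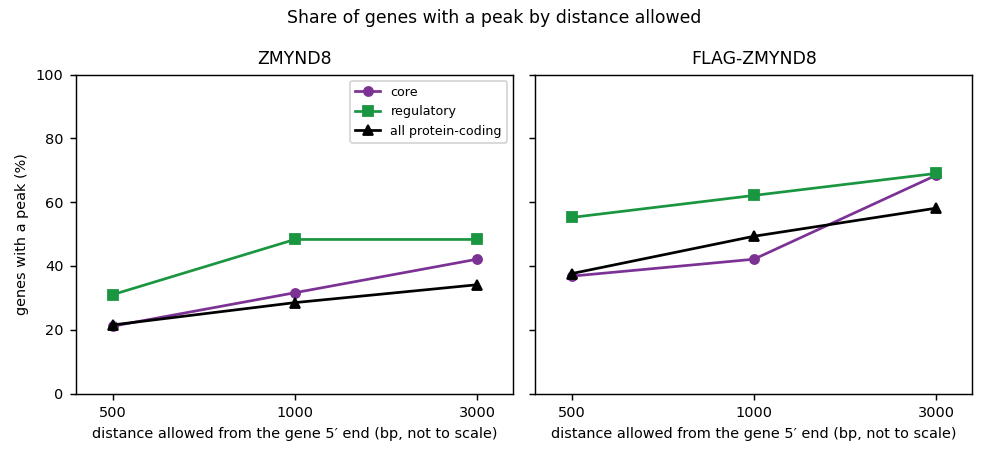
Share of genes with a peak, in percent, when midpoints within 500, 1000 or 3000 bp of the annotated 5′ end were counted, for core genes (circles), regulatory genes (squares) and all protein-coding genes (triangles). In the FLAG-ZMYND8 panel core and regulatory genes meet at 3000 bp, at 68.4 and 69.0%, and stand at 42.1 and 62.1% at 1000 bp.

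On the side of the start, the proteasome genes resembled other genes. Within 1 kb, 13 ZMYND8 midpoints lay downstream, 6 upstream and that of PSMD14 at the start itself, which left 68.4% downstream (43.4 to 87.4%) against 65.9% over all genes. The FLAG-ZMYND8 list had 22 downstream and 14 upstream, 61.1% (43.5 to 76.9%) against 60.0%. By annotation, 8 of the 24 ZMYND8 midpoints were in untranslated exons, 7 in introns, 6 between genes, 2 in coding exons and 1 in another exon. For FLAG-ZMYND8 these were 14, 21, 13, 3 and 1 of 52. Annotation was not counted for peaks at all protein-coding genes, so no likeness to them can be stated there.

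Most ZMYND8 peaks at proteasome genes were of the minimum width. Their median width was 151 bp, the minimum of the list (distribution-free 95% interval 151 to 232 bp), against 226 bp for peaks at all protein-coding genes, which the interval contained. The minimum was found for 13 of 24 peaks (54.2%), against 36.2% at all genes. Within 1 kb the median was 188.5 bp with 45.0% at the minimum, against 238 bp and 31.9%, so most peaks at that distance were wider. At core genes 8 of 10 were at the minimum, and the exceptions were PSMA1 and PSMA7. At regulatory genes 5 of 14 were at the minimum and the median was 214 bp. The FLAG-ZMYND8 median of 229 bp (167 to 262 bp) was close to the 227 bp of all genes, with 209.5 bp at core and 244 bp at regulatory genes. When minimum-width peaks were set aside, ZMYND8 peaks remained at 2 core genes, PSMA1 and PSMA7, and at 9 regulatory genes, 11 of 48 in all (22.9%) against 23% of all genes, and peaks of both lists at 7 (14.6%, against 18.2%).

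**Figure D4:**
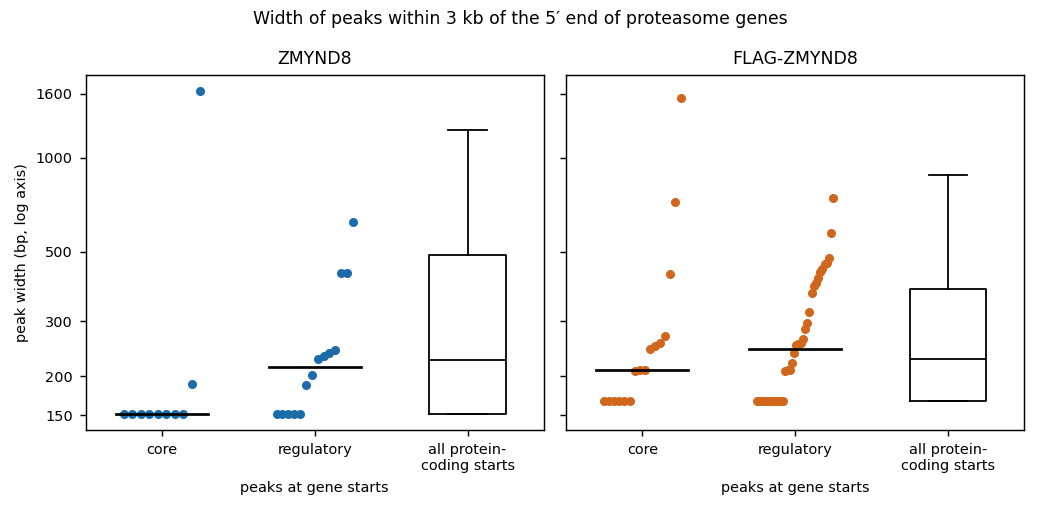
Width in bp (log axis) of each peak within 3 kb of the annotated 5′ end of core and regulatory genes, with the median as a line. Boxes give the median and quartiles, and whiskers the 5th and 95th percentiles, of peaks at all protein-coding genes. Core ZMYND8 points lie at 151 bp apart from PSMA7 at 189 bp and PSMA1 at 1637 bp.

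Other genes of the ubiquitin-proteasome pathway were a list of 29 with ubiquitin genes, shuttle factors, proteasome-bound enzymes and the VCP segregase. They had ZMYND8 peaks at 14 (48.3%, 29.4 to 67.5%) and FLAG-ZMYND8 peaks at 25 (86.2%, 68.3 to 96.1%). Over all protein-coding genes these shares were 34.1% and 58.1%. The 3 genes ADRM1, UBA6 and NPLOC4 had neither, as did 37.2% of all genes. RPS27A was in this list and in the cytosolic ribosomal set below. ADRM1, a ubiquitin receptor of the proteasome, and UBA6, a ubiquitin-activating enzyme, had none from either start. NFE2L1, the transcription factor that raises proteasome gene expression when proteasome activity falls, had 2 ZMYND8 and 5 FLAG-ZMYND8 peaks. The ubiquitin gene UBB had 2 ZMYND8 and 4 FLAG-ZMYND8 peaks. PAAF1, which binds the ATPases, was the only gene of the list with a ZMYND8 peak alone. The cytosolic ribosomal protein genes, another large set used by every cell, had ZMYND8 peaks at 34 of 77 (44.2%, 32.8 to 55.9%) and FLAG-ZMYND8 peaks at 66 (85.7%, 75.9 to 92.6%). The mitochondrial ribosomal protein genes had them at 32 of 78 (41.0%, 30.0 to 52.7%) and 57 (73.1%, 61.8 to 82.5%). The FLAG-ZMYND8 intervals of these 3 sets lay above the 58.1% of all genes. That of the proteasome genes did not, and their share of 68.8% was the lowest of the 4 sets. Differences between the sets were not tested.

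The promoters of the proteasome genes, read from 250 bases before to 50 bases after the canonical start, had a median GC content of 61.6% (range 44.7 to 80.7%) and 22 CpG, against 63.7% and 23 over all protein-coding genes. Genes with a ZMYND8 peak at that start had a median GC content of 62.7% and those without 60.3%. The letters TGACNNNGC, known from the antioxidant response element that NFE2L1 binds, were found on either strand at 14 of 48 promoters (29.2%), against 14.1% of all. They were at 7 of the 21 promoters with a ZMYND8 peak and 7 of the 27 without, so they did not follow the peaks from this start. The ETS letters CCGGAAG were at 18 promoters (37.5%, against 14%), 9 of 21 with and 9 of 27 without a ZMYND8 peak. From annotated 5′ ends these letters were at 14 (29.2%, against 13.7%) and 12 (25%, against 11.8%), and TGACNNNGC was then at 10 of the 22 promoters with a ZMYND8 peak and at 4 of the 26 without. From canonical starts CCAAT was at 20 promoters (41.7%, against 35.9%), TATAAA at 5 (10.4%, against 9.82%) and the YY1 letters AAGATGGCG at 4 (8.33%, against 2.82%). From annotated 5′ ends these were at 20 (41.7%, against 35.8%), at 3 (6.25%, against 10.9%) and at 2 (4.17%, against 1.87%), so TATAAA changed sides with the start. A match describes letters only, and binding of these factors was not measured.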

How the data were processed

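ChIP-seq was measured in 10 samples, and the 2 deposited peak lists were used. Per the labels, reads were mapped to hg19 (GRCh37, hs37d5) with BWA (0.7 where a version is named) and processed with HOMER. Peak-calling settings and the handling of replicates are not given in the sources used here. The authors deposited peak positions, counted from 0 in the files and from 1 here, and a score of 1 in every row, so width took its place. Every peak fitted within the GRCh37 chromosomes. Gene starts came from GENCODE 44 on GRCh37, sequences from the GRCh37 reference. Each gene was called when a midpoint lay within 3 kb (1 kb and 500 bp as alternatives), and peaks were shared at an overlap of at least 1 bp. No statistical test was run, since there is 1 list per target. Alternatives covered distance, start, width, list length, overlap and shared starts. Each member is named within its group, with coordinates for the widest peaks, ZMYND8-only genes, interferon-inducible and tissue-restricted genes and those whose call changed with the start. Other coordinates, such as those of PSMC3, PSMC6, PSMD12 and PSME3, were added after their values were seen. The members and lists were chosen with earlier results of these data known. Placement was tested on simulated data, with 0 of 400 genes misplaced. Python 3.11.15, numpy 2.4.6, pandas 2.3.3, scipy 1.17.1 and matplotlib 3.10.9 were used.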

Additional observations from a re-analysis of the deposited data

How the results depend on the processing

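No paired analysis was possible because each target has 1 list without replicate names, which also kept any replicate from being left out. Under the alternatives, 65 values kept to their limit, which was 1.5 times the main count for counts of genes and the main 95% interval for shares of peaks and median widths, and 22 did not. With midpoints within 500 bp, ZMYND8 genes went from 22 to 13 (core 8 to 4, regulatory 14 to 9), core FLAG-ZMYND8 genes from 13 to 7 and genes with both from 16 to 9. Within 1 kb, core FLAG-ZMYND8 genes numbered 8. With peaks wider than the minimum, ZMYND8 genes numbered 11 (core 2, regulatory 9), genes with both 7, and the median widths rose by construction to 238 bp for ZMYND8 and 284 bp for FLAG-ZMYND8. With the FLAG-ZMYND8 list trimmed by width to the length of the ZMYND8 list, FLAG-ZMYND8 genes fell from 33 to 15 (core 4, regulatory 11) and genes with both to 8. Leaving out members that share a start with another protein-coding gene left 34 members, 21 with FLAG-ZMYND8 peaks (61.8%) and 10 with both (29.4%), and 12 core members, 4 with ZMYND8 (33.3%) and 6 with FLAG-ZMYND8 peaks (50%). Counting peaks as shared when midpoints lay within 1 kb of each other raised the shared part to 62.5% of ZMYND8 and 40.4% of FLAG-ZMYND8 peaks. Over all protein-coding genes these parts were 76.6% and 36.0%. Asking for a reciprocal overlap of 50% left 20.8% and 9.62% shared, against 22.0% and 7.29%. The distance from all genes therefore depended on the overlap rule. An alternative chosen after seeing the data, without the 8 members of uncertain start, moved no count by over 1.5 times, with 18 ZMYND8, 27 FLAG-ZMYND8 and 13 with peaks of both lists among 40 genes. With no counts in the lists, an absent peak says only that none was called at an unknown depth.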

Other observations

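Over whole genes, the peaks near the starts included, FLAG-ZMYND8 midpoints were found inside 32 of the 48 proteasome genes, 71 peaks in all, and ZMYND8 midpoints inside 21 genes, 25 peaks in all. PSMG4, a chaperone of core assembly, held the most in each list, 6 FLAG-ZMYND8 and 3 ZMYND8 peaks, and the alpha ring gene PSMA5 also held 3 ZMYND8 peaks. PSMB9 held 4 FLAG-ZMYND8 peaks, the most of any core gene. Gene length was not allowed for, and PSMG4 spans 71971 bp. The same counts were not made over all protein-coding genes, so these cannot be called high or low.

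The letters of the interferon-stimulated response element, GAAA repeated after any 2 bases, were at 6 of 48 canonical proteasome promoters (12.5%, against 3.32% of all protein-coding genes). Of these 6, 4 were among the 5 interferon-inducible genes, PSMB8, PSMB10, PSME1 and PSME2, and the others were PSMB4 and PSMG4. From annotated 5′ ends the letters were at 3 of the 5, PSMB9, PSMB10 and PSME1. From canonical starts they were at 3 of the 21 promoters with a ZMYND8 peak and 3 of the 27 without, and from annotated 5′ ends at 3 of 22 and 2 of 26.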
